A study of Rattus norvegicus with 16 samples.

Results

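Of 11154 transcribed loci that the authors assembled from rat heart RNA, 4 are described here: MERGE.14815, MERGE.6140, MERGE.16966 and MERGE.14292. They were picked because they hold transcripts with some of the largest differences between the hypertensive and the control strain, so every SHR against WKY value is given as a description, without a test. The rule took each row whose identifier starts with one of these locus numbers, which gave 71 of the 34480 rows in the files. MERGE.14292 supplied 65 of them, MERGE.14815 supplied 4, and MERGE.6140 and MERGE.16966 supplied 1 each. The question was whether each locus as a whole was gained or lost between the strains, or whether its transcripts were exchanged for one another.

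The hearts came from 3 groups of rats. Wistar Kyoto rats (WKY, 5 libraries) and spontaneously hypertensive rats (SHR, 5 libraries) were given double distilled water by stomach tube. A further 6 SHR received neferine, a plant alkaloid, at 10 mg/kg per day, and treatment lasted 10 weeks. Ages are not given in the sources used here, and the labels of the treated rats list water beside neferine. One library per numbered rat was made from ribosomal-RNA-depleted total RNA of heart tissue, and p-values below measure the spread between these libraries.

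The SHR is an inbred line bred for high blood pressure from Wistar stock, and its heart enlarges under the pressure load. The WKY comes from the same stock and is its usual control. Inbred rats of one line carry nearly the same alleles, whereas 2 lines can differ in the sequence, copy number and activity of a gene. A locus in a merged assembly collects overlapping transcripts from one stretch of the genome. These can differ in their start site, splicing or end, and a locus can therefore keep its output while one transcript replaces another.

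No identifier of these loci could be paired with a gene (0 of 71 matched the table of rat gene symbols), so neither a gene name, a position nor a sequence is given, and the heart could not be checked against its marker genes. The deposited values are a linear abundance signal, and the sources used here do not name its exact unit. Whether they are scaled by transcript length is also unknown, so levels were not compared between loci, and a share below means a share of the deposited values. Library sums ran from 556993 to 683638. WKY 1, WKY 3, SHR 3 and SHR 4 stood apart from the other libraries along the main direction of variation within groups (scores of -0.295, -0.345, -0.462 and -0.305, against -0.161 to 0.396 for the rest). The description of SHR 1 reads WKY while its other labels read SHR, and it was kept as SHR; the 4 loci cannot test this label, because they were chosen with it counted as SHR. In whole hearts, more cells of a type and more RNA per cell cannot be told apart.

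MERGE.14815 was near 0 in WKY and high in SHR, and the mean of each of its transcripts was higher in SHR. Its sum was 1.73, 1.51, 1.21, 1.98 and 1.79 in WKY 1, 3, 4, 5 and 6. In SHR 1, 2, 3, 4 and 6 it was 212, 156, 187, 165 and 252. The lowest SHR library thus lay far above the highest WKY library. The group means were 1.64 ± 0.29 in WKY and 194 ± 39.2 in SHR (SD, n = 5 each), a ratio of 118. On the log2(sum + 1) scale the difference was 6.19, the largest of 10844 locus sums in the WKY and SHR files. Of those sums, 3.47% were higher in every SHR than in every WKY library and 2.97% lower (6.44% in all). The 4 loci described here are among them by their choice, and nothing is read from these shares.

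The main transcript of this locus was MERGE.14815.1. It had values of 1.20, 1.51, 1.21, 1.27 and 1.52 in the WKY libraries and of 139, 85.3, 143, 99.4 and 152 in the SHR libraries. It held 63.7% of the mean SHR sum and 81.7% of the small WKY sum. MERGE.14815.4 was at 0 in 3 WKY libraries and at most 0.2 in the others, and at 35.5, 39.1, 36.4, 31 and 51.3 in SHR. It was the steadiest of the locus, at 16.7% to 25.1% of the sum in every SHR library.

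MERGE.14815.2 was at most 0.264 in WKY and at 37.3, 31.1, 7.46, 33.1 and 47.3 in SHR 1, 2, 3, 4 and 6. SHR 3 was low for it although its locus sum was not: there MERGE.14815.2 held 3.99% of the sum and MERGE.14815.1 held 76.6%. MERGE.14815.3 stayed at 1.72 or less in every library. Since all 4 differences had one direction, the net difference of the locus equalled the summed differences of its transcripts (100%). The WKY sums were at most 1.98, so no transcript could be much lower in SHR, and this percentage could hardly be otherwise. It shows a higher sum in SHR and cannot speak to an exchange. SHR and WKY did not overlap for MERGE.14815.1, MERGE.14815.2 and MERGE.14815.4. Among all 32924 rows measured in those 2 groups, 2.32% were higher in SHR without overlap, and nothing is read from this, because the locus was chosen on that difference.

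**Figure D1:**
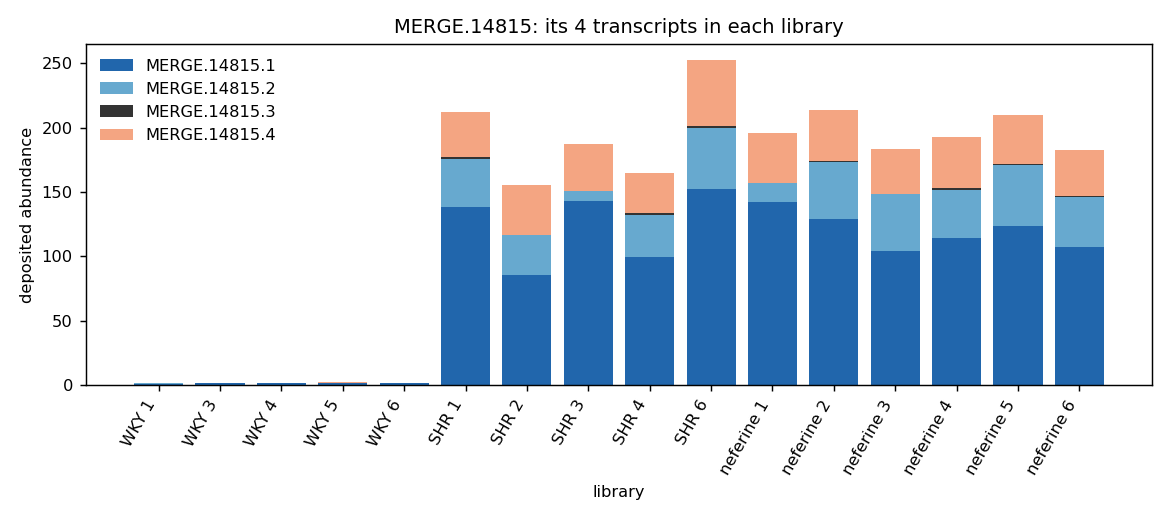
Deposited abundance of the 4 transcripts of MERGE.14815 (stacked bars, linear axis) in each of the 16 libraries. WKY sums are at most 1.98 and SHR-strain sums at least 156; the share of MERGE.14815.2 is small in SHR 3 and in neferine 1.

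The neferine-treated rats were SHR that had no part in choosing the locus, and it was high in all 6. Their sums were 196, 214, 184, 192, 210 and 183 for neferine 1 to 6, all within the range of untreated SHR. In neferine 1 MERGE.14815.2 was at 14.8, or 7.54% of the sum, against 37.5 to 47.4 in the other 5. In neferine 1, as in SHR 3, a larger share of the sum fell to MERGE.14815.1 (72.4%, against 56.6% to 60.4% in the other treated libraries).

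MERGE.6140 was represented by 1 row, MERGE.6140.3. With 1 row, an exchange within this locus cannot be examined. All 5 WKY libraries list MERGE.6140.3 at 0, and it was 74.8, 55.9, 42.9, 53.3 and 61.1 in SHR 1, 2, 3, 4 and 6. It was present in every SHR library and in no WKY library, and no fold is given against a group at 0. In neferine 1 to 6 it was 24.4, 55.6, 32.3, 71.8, 76.8 and 91.9. Neferine 1 and 3 lay below all untreated SHR, and neferine 5 and 6 above all of them, so the treated rats spread on both sides of the untreated ones.

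MERGE.16966 also had a single row, MERGE.16966.1, but here WKY was not at 0. It was 0.531, 0.626, 0.301, 0.258 and 0.39 in WKY 1, 3, 4, 5 and 6, and 88.5, 83, 59.3, 68.9 and 112 in SHR 1, 2, 3, 4 and 6. The ratio of the SHR to the WKY mean was 196, and the log2(value + 1) difference was 5.85. In neferine 1 to 6 it was 97.6, 98.1, 87.1, 83.2, 88.9 and 79.4. All 6 fell inside the SHR range, and the lowest values of the strain were those of SHR 3 and SHR 4. By the size of the log2(sum + 1) difference, MERGE.14815, MERGE.6140 and MERGE.16966 were the first 3 of 10844 loci, while MERGE.14292 came at rank 150.

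**Figure D2:**
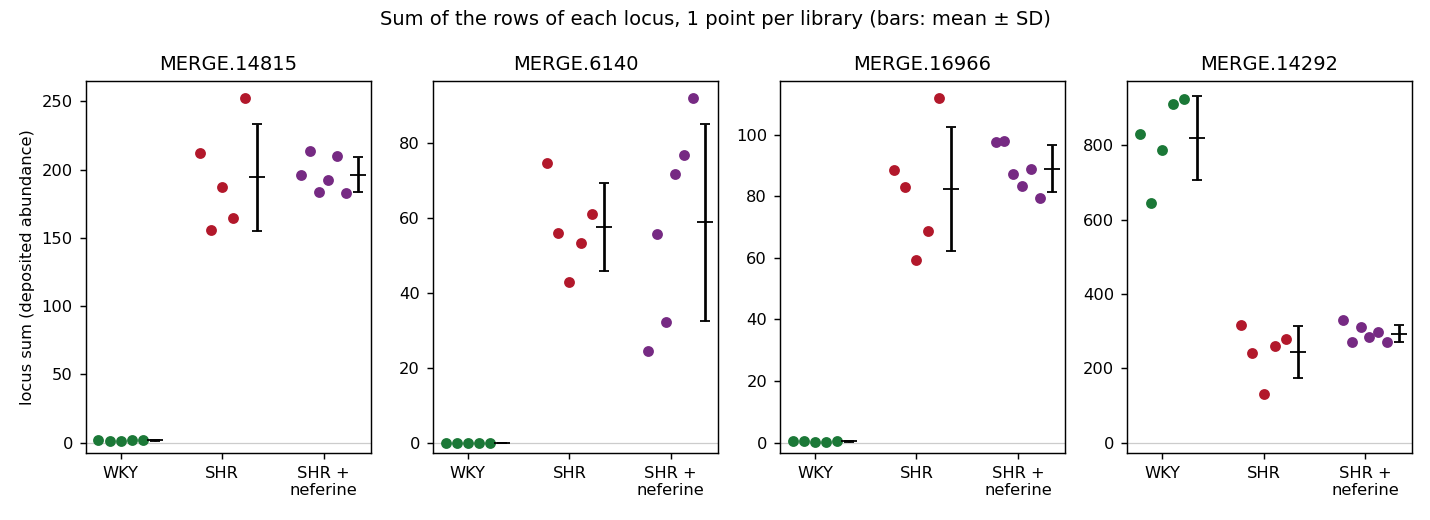
Sum of the deposited abundances of all rows of each locus (linear axis, a scale for each locus), with 1 point per library and the mean ± SD beside them, for WKY (n = 5), SHR (n = 5) and neferine-treated SHR (n = 6). WKY lies at or near 0 in 3 loci and between 644 and 925 in MERGE.14292, where SHR lies between 130 and 316. In MERGE.14292 the WKY and SHR points sum 63 rows and the neferine points 46 rows, so they are not the same sum.

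MERGE.14292 behaved differently: its sum was lower in SHR, and the transcripts that made up the sum were mostly other ones. It was the locus with the most rows in the WKY and SHR files. The transcript numbers of its 65 rows ran from 3 to 98: 44 rows were in all files, 19 in the WKY and SHR files alone and 2 in the neferine files alone. Over the 63 rows measured in both untreated strains, its sum was 831, 644, 787, 911 and 925 in WKY 1, 3, 4, 5 and 6. In SHR 1, 2, 3, 4 and 6 it was 316, 240, 130, 259 and 279. The strains did not overlap, and the SHR mean of 245 ± 70.3 was 0.299 times the WKY mean of 820 ± 113 (SD, n = 5 each), with a log2(sum + 1) difference of -1.79.

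The lower sum was the balance of differences in both directions. The means of 37 rows were lower in SHR, with a summed difference of -772.2, and the means of 26 rows were higher, with a summed difference of 197.3. The net difference of -574.9 was 59.3% of the summed absolute differences. In the 78 loci with at least 10 rows, the median of that percentage was 22.2%, and 69 of them had a lower one than MERGE.14292. Random scatter between libraries also adds to the absolute differences, so a low percentage alone does not show an exchange. Over the 44 shared rows the summed absolute difference was 584 between SHR and WKY, and 191.8 between neferine-treated and untreated SHR.

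The rows that made up the locus were largely different ones in the 2 strains. The overlap of make-up between a pair of libraries was taken as the sum over rows of the smaller of the 2 shares. Its median was 67.1% over the 10 pairs of WKY libraries and 45.2% over the 10 pairs of SHR libraries. For the 25 pairs of a WKY and a SHR library it was 8.78%, with a range of 3.82% to 20.6%, and the lowest pair within WKY or within untreated SHR was at 25.4%. For MERGE.14815 the median was 76.6% between strains, 76.7% within WKY and 91.5% within SHR. The WKY shares of that locus rest on sums of 1.21 to 1.98, so the first 2 of these medians describe values near 0. These percentages share libraries between pairs and carry no test. The locus was chosen for large strain differences of its transcripts, so a low overlap between strains was partly built in.

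Of the 63 rows, 12 were lower in every SHR library than in every WKY library, 9 were higher in every SHR library, and 42 overlapped. Across all rows of these files, 2.38% were lower without overlap and 2.32% higher (4.7% in all), and since the locus was chosen on this contrast nothing is read from the comparison. The 12 lower rows summed to 294.9 to 606.4 in the WKY libraries, or 45.8% to 66.6% of the locus, and to 2.05 to 17.9 in SHR. The 9 higher rows summed to 0.71 to 8.33 in WKY and to 62.9 to 167.5 in SHR, where they held 27% to 60% of the locus. The overlapping rows also had a lower sum in SHR, at 63.5 to 191 against 296 to 373.5 in WKY. Of these 42 rows, 25 had the higher mean in WKY and 17 in SHR, and 19 never reached a value of 10 in any library.

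**Figure D3:**
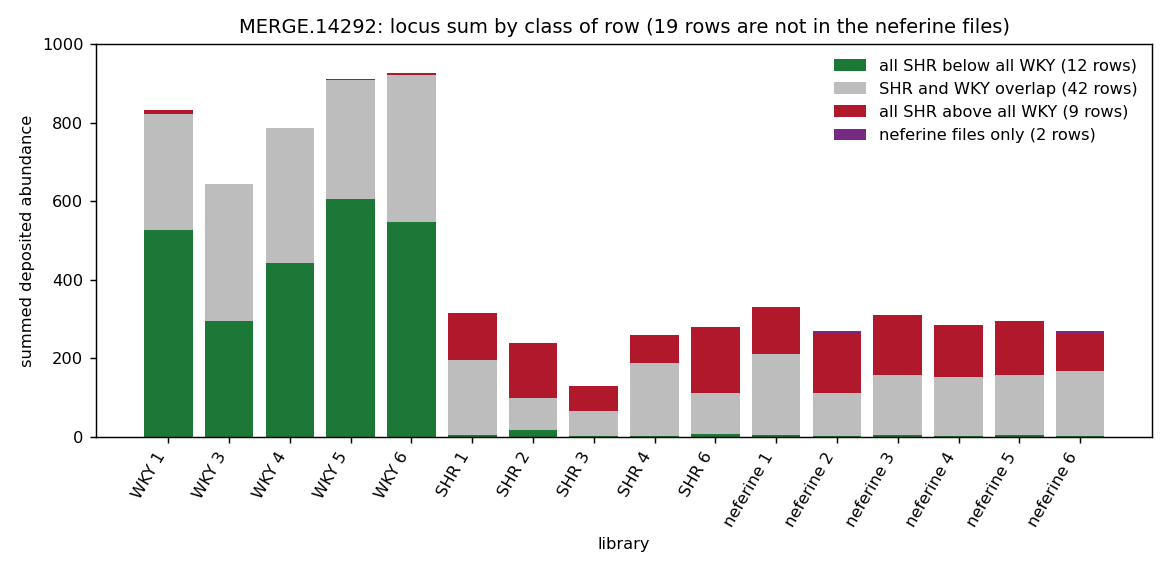
Summed deposited abundance of MERGE.14292 in each library (linear axis), split into the 12 rows lower in every SHR library than in every WKY library, the 9 rows higher in every SHR library, the 42 rows that overlap and the 2 rows listed for the neferine libraries alone. The first class fills 45.8% to 66.6% of the WKY bars and at most 7.48% of a SHR bar. The neferine bars lack the 19 rows that are listed for WKY and SHR alone.

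Among the rows lower in SHR, MERGE.14292.63 was the leading one, with the largest log2 difference of the locus. It was 114, 98, 101, 100.3 and 119 in WKY 1, 3, 4, 5 and 6, and was listed at 0 in all 5 SHR libraries. It ranked second of 32924 rows by the log2(value + 1) difference. MERGE.14292.87 had the largest negative difference of the means in the locus. It was 92.1, 61.4, 31.2, 246 and 168 in the WKY libraries and at 0 in every SHR library, so its level varied widely among WKY rats and was 0 throughout SHR. Neither of them is a row of the neferine files. None of the 19 rows of this locus that are missing there had a SHR mean of 0.5 or more.

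MERGE.14292.23 was 117, 54, 124, 94.6 and 83.5 in the WKY libraries. SHR 2 had 15.2, whereas the other 4 SHR libraries and all 6 treated ones had 0. MERGE.14292.84 was 122, 23.8, 126, 97 and 67.8 in WKY and at most 2.03 in SHR. In SHR 2 the 12 lower rows held 7.48% of the locus, against 0.79% to 2.99% in the other SHR libraries. SHR 2 did not carry the WKY rows evenly: MERGE.14292.23 stood at 16% of its WKY mean there, while MERGE.14292.63 and MERGE.14292.87 were at 0. MERGE.14292.22, which counts among the overlapping rows, was 12.1 in SHR 2 and 0 in the other SHR libraries, against a WKY mean of 22.2. SHR 2 was not alone in this. MERGE.14292.94 was 13.2 in SHR 4 and 0 in the other untreated SHR libraries, against a WKY mean of 32.35, and 15.9 in neferine 1. In this locus, 7 rows reached 1 in each WKY library and stood at 0 in the 4 SHR libraries other than SHR 2. SHR 2 was above 0 for 3 of them. The like count in the locus was 1 of 5 rows for SHR 4, and 0 of 4 rows for SHR 1, SHR 3 and SHR 6. Outside this locus, 30 rows reached 1 in each WKY library and stood at 0 in the 4 SHR libraries other than SHR 2, and SHR 2 was above 0 for 7 of them. The same count for each other SHR library was 1 to 8, of 24 to 31 rows.

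In WKY 3 one row stood at the level that another row had in the other WKY libraries. MERGE.14292.57 was 104, 108, 112 and 99.3 in WKY 1, 4, 5 and 6, and was listed at 0 in WKY 3. MERGE.14292.85 was 1.78, 2.41, 2.26 and 1.47 in those 4 libraries and 115.5 in WKY 3. Their sum was 106, 115.5, 110, 114 and 101 in WKY 1, 3, 4, 5 and 6, or 109 ± 5.99 (SD, n = 5), so the total in WKY 3 was close to that of the others. In SHR the pair summed to at most 9.39, and in the neferine libraries both rows were at 0. The second row of the pair was chosen after its values were seen. Other pairs of rows that were summed kept no such steady total in WKY. MERGE.14292.87 with MERGE.14292.89 summed to 91 to 254 there, and MERGE.14292.22 with MERGE.14292.23 to 72.7 to 173.7.

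**Figure D4:**
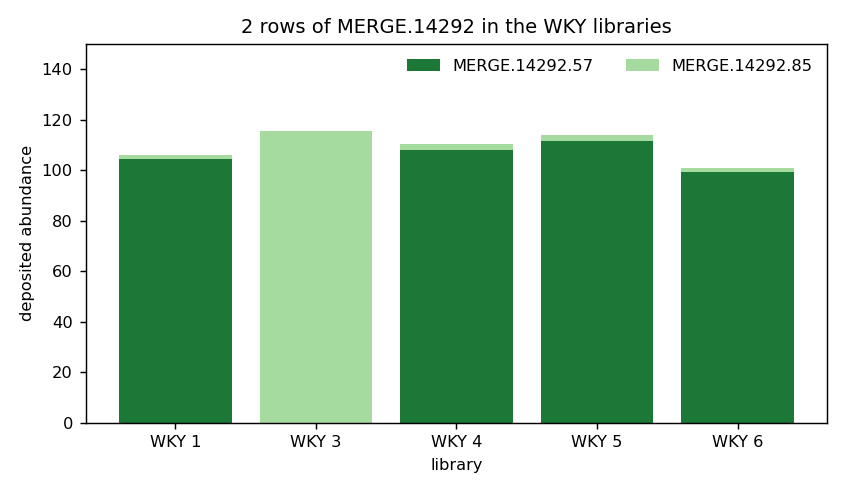
Deposited abundance of MERGE.14292.57 and MERGE.14292.85 (stacked bars, linear axis) in the 5 WKY libraries. The stacked total runs from 101 to 115.5, made up of MERGE.14292.57 in 4 libraries and of MERGE.14292.85 in WKY 3.

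The rows higher in SHR had a smaller sum there than the lower rows had in WKY. Both MERGE.14292.67 and MERGE.14292.75 were present in every SHR library at like levels. MERGE.14292.67 was at most 0.342 in WKY and 13.3, 15.6, 8.47, 9.04 and 15 in SHR 1, 2, 3, 4 and 6. MERGE.14292.75 was 5.46 in WKY 1, at most 0.33 in the other WKY libraries, and 9.49 to 16.7 in SHR. They were at like levels in the neferine libraries, at 9.71 to 14.9 and at 7.67 to 17.9. These 2 rows were singled out after their values were seen.

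The largest positive difference of the means in the locus was that of MERGE.14292.51, and it was not shared by all SHR. It was 72.5 in SHR 1 and 68.8 in SHR 4, 7.77 in SHR 3, 9.81 in SHR 6 and 0 in SHR 2, against at most 0.381 in WKY. MERGE.14292.98 was present in all SHR-strain libraries but at 2 levels. It was 49.6 in SHR 2 and 43, 47.6 and 46.3 in neferine 2, 3 and 5, and lay between 6.29 and 12.8 in the other 7 SHR-strain libraries. In WKY it did not pass 0.122. The labels give no difference between the 4 libraries with the high level and the 7 others of the strain, and this row too was picked for its values.

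The row with the highest value changed from rat to rat. In WKY it was MERGE.14292.84 in libraries 1 and 4, MERGE.14292.85 in library 3 and MERGE.14292.87 in libraries 5 and 6. Among the 11 SHR-strain libraries 6 different rows took first place, with 12.4% to 44% of the sum. None of these 6 was the largest row in any WKY library. Between 26 and 34 rows reached a value of 1 in a WKY library and between 20 and 24 in a SHR library.

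**Figure D5:**
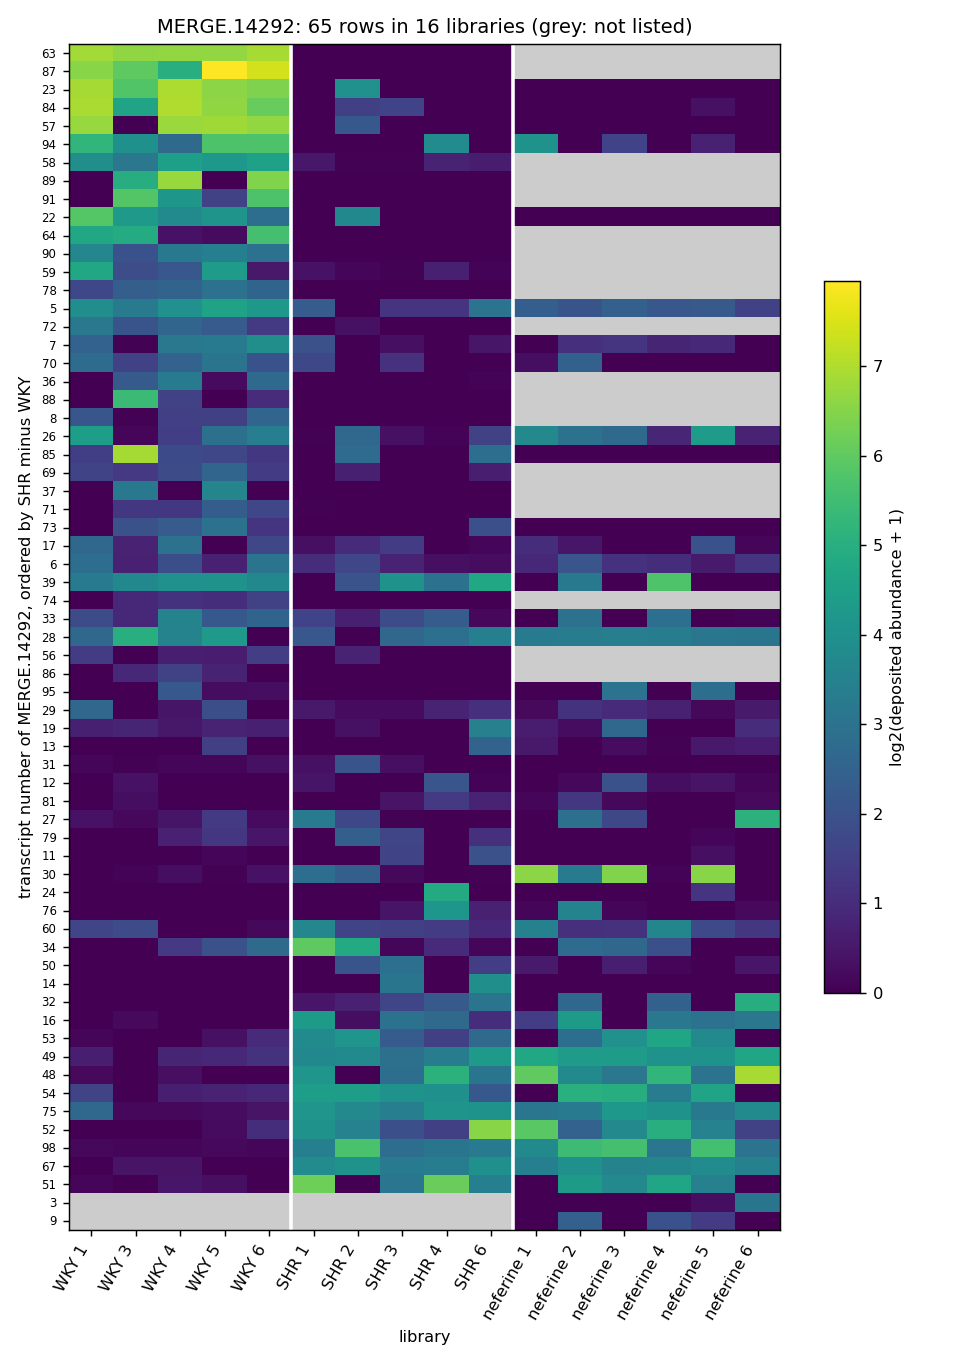
All 65 rows of MERGE.14292 (vertical axis, transcript number, ordered by the SHR minus WKY difference) in the 16 libraries (horizontal axis), coloured by log2(deposited abundance + 1), with rows that a file does not list in grey. Rows at the top are bright in WKY and dark in SHR, and dark or grey with neferine. Rows near the bottom are dark in WKY and brighter in many SHR-strain libraries. Single cells that stand out include MERGE.14292.23 in SHR 2, MERGE.14292.57 and MERGE.14292.85 in WKY 3 and MERGE.14292.24 in SHR 4.

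These values depend on which rows are summed. Over the 44 rows shared with the neferine files, the WKY sum was 433 ± 92.6 (SD, n = 5) in place of 820, while the SHR sum was 244 ± 69.9 (SD, n = 5). On those rows the log2(sum + 1) difference shrank from -1.79 to -0.86, the strains overlapped, and 3 in place of 12 rows were lower in every SHR library, where 1.66% of all shared rows were. The 19 rows missing from the neferine files added at most 1.72 to a SHR library and 301 to 529 to a WKY library.

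None of the 4 locus sums passed the test between neferine-treated and untreated SHR. The test was limma with a variance trend on log2(sum + 1), with all 16 libraries in one fit and Benjamini-Hochberg adjustment over 8664 assembled loci. limma called 0 of these loci (0%), and 477 (5.51%) passed at an unadjusted p under 0.05, none of them among the 4. The difference of neferine-treated from untreated SHR for MERGE.14815 was 0.034 on the log2 scale (95% interval -0.22 to 0.29, limma adjusted p 0.993). For MERGE.6140 it was -0.091 (-0.68 to 0.5, limma adjusted p 0.992), and for MERGE.16966 it was 0.14 (-0.15 to 0.43, limma adjusted p 0.94). For MERGE.14292 over the shared rows it was 0.31 (-0.11 to 0.73, limma adjusted p 0.918), and 0.097 without SHR 3, the library with the lowest sum.

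The intervals leave room for changes of 0.29 to 0.73 upwards and 0.11 to 0.68 downwards on the log2 scale. They do not show that there was no effect. Their spread was estimated over all 3 groups together. For MERGE.6140 all 5 WKY libraries were at 0 and added no spread, so its interval is likely too narrow. Over the shared rows of all loci, 0.232% of sums were higher and 0.27% lower in every treated than in every untreated library (0.502% in all), and the 4 loci overlapped. MERGE.14292 summed to 330, 265, 310, 281, 295 and 263 in neferine 1 to 6 over the shared rows. Only neferine 1 exceeded the highest untreated SHR library, at 316, and none came near the lowest, SHR 3 at 130. The untreated SHR libraries that helped to choose the loci also enter this comparison.

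At the level of transcripts, 36 of the 71 rows reached a value of 1 in 5 or more libraries and were tested. limma called 1 of 24577 transcripts between neferine-treated and untreated SHR (0.00407%), which lay outside these loci. At an unadjusted p under 0.05 it passed 1446 (5.88%), of which 2 belonged to MERGE.14292. MERGE.14292.49 was 12, 12.9, 6.72, 9.15 and 18.6 in SHR and 26.4, 19.4, 19.8, 16, 15.9 and 25.1 with neferine. It is named for its unadjusted p, after its values were seen. The groups overlap through SHR 6, and the log2(value + 1) difference was 0.78 (SE 0.24, limma adjusted p 0.834).

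MERGE.14292.30 was the other. It was 94, 86 and 91.1 in neferine 1, 3 and 5, and at most 8.69 in the other 13 libraries, and its log2(value + 1) difference was 2.72 (SE 1.2, limma adjusted p 0.834). Some of the 31 tested rows of MERGE.14292 reached the required level through WKY, such as MERGE.14292.23 and MERGE.14292.85. MERGE.14292.57, at 0 in WKY 3, reached it through the other WKY libraries and SHR 2, where it was 3.595. With the filter and the fit limited to treated and untreated SHR, 26 rows of the 4 loci were tested and limma called 0. Of these rows 2 passed at an unadjusted p under 0.05. Over all 21786 transcripts of that fit, limma called 3, and 1186 passed at an unadjusted p under 0.05. The 3 tested rows of MERGE.14815 had differences of -0.017 for MERGE.14815.1, 0.39 for MERGE.14815.2 and -0.011 for MERGE.14815.4 (smallest limma adjusted p 0.914). No shared row of the 4 loci was free of overlap between treated and untreated SHR, against 0.486% of the 31042 shared rows (0.277% higher and 0.209% lower with neferine).

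Exchange between transcripts under neferine was tested as the log2 ratio of a transcript to the rest of its locus. limma called 0 of 8947 transcripts (0%), and 455 (5.09%) passed at an unadjusted p under 0.05, with none of the 34 tested rows of MERGE.14815 and MERGE.14292 among them (smallest limma adjusted p 0.951). In simulated data for this comparison the ratio test recovered 12% of 100 ratios changed by 1 on the log2 scale and 39% of 100 changed by 2. It could therefore miss an exchange of that size. For locus sums the test recovered 66% and 93%. All changed features of a test were simulated together, which eases the adjusted threshold, and their scatter was normally distributed. Many rows of MERGE.14292 are at 0 in several libraries and do not scatter in that way. Recovery at these loci may therefore be lower than the simulated percentages.

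The values of the treated rats were also set beside WKY, without a test, since the WKY libraries took part in choosing the loci. MERGE.14815, MERGE.6140 and MERGE.16966 were higher in all 6 neferine libraries than in all 5 WKY libraries. In MERGE.14292, 6 shared rows were lower and 6 higher in every neferine library than in every WKY library. Over all shared rows these shares were 1.62% and 2.88% (4.49% in all), and nothing is read from the comparison. Of the 9 rows higher in every SHR library, 5 were also higher in every neferine library than in every WKY library, and all 3 shared rows of the 12 lower ones were lower. The like shares over all rows were not worked out for these counts, nor over all loci for the 3 locus sums. Nothing is read from them either. The overlap of make-up over shared rows had a median of 42% between treated and untreated SHR, 45.4% within untreated SHR, 43.2% within treated SHR and 8.46% between treated SHR and WKY. The ranges met: the lowest pair of treated and untreated SHR was at 20.7%, and the highest pair of WKY and untreated SHR at 21.4%.

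Transcripts of other loci had nearly the same pattern as the 3 loci that were higher in SHR. Over the 16 libraries and 24541 other tested transcripts, the pattern most like that of MERGE.14815.1 was MERGE.13314.1 (Pearson's r of log2(value + 1) 0.999). It ran from 0.252 to 0.642 in WKY, from 62.8 to 95.7 in SHR and from 69.8 to 87.2 with neferine. For MERGE.16966.1 it was MERGE.21708.1 (r 0.999), at 0.121 to 0.228 in WKY, 51.8 to 88.4 in SHR and 67.1 to 79.3 with neferine. For MERGE.6140.3 it was MERGE.5956.1 (r 0.991), at 0 to 0.353 in WKY, 12.4 to 17.2 in SHR and 8.35 to 20.5 with neferine. These correlations describe a shared split by strain over libraries that the transcripts have in common. The leading row of MERGE.14292, MERGE.14292.63, has no value in the neferine files and was not matched.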

How the data were processed

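Heart RNA of 16 rats (5 WKY, 5 SHR, 6 neferine-treated SHR) was analysed from 1 file per library. The authors deposited a normalised abundance signal per transcript, linear, decimal and never negative; its exact unit, the aligner, the quantification tool, the build and the annotation are not given in the sources used here. limma is listed, with neither version nor role, in the submitters' processing notes. The highest Spearman correlation between 2 libraries was 0.755. Depth is unknown, so the number of animals sets the precision. No row of the WKY and SHR files had means below 0.5 in both groups.

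The members, lists and rules were chosen with earlier results of these data known. SHR against WKY chose the loci and was not tested. Neferine against SHR was tested with limma 3.58.1 in R 4.3.3 (variance trend, 1 mean per group, all 16 libraries) on log2(value + 1) of shared rows that reached 1 in 5 or more libraries, on sums per locus, and on each transcript over the rest of its locus, at an adjusted p under 0.05. The planned rule named the leading transcript of each locus, the largest rise and fall, transcripts with at least 10% of a group's mean sum, and the most similar transcript elsewhere. The tests were tried on simulated data. Alternatives were another pseudocount (0.1), no filter, the compared groups alone, the animal number as a block, median-of-ratios scaling, other rows, an exact permutation test and the omission of libraries.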

Additional observations from a re-analysis of the deposited data

Results flagged for a closer look

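Among 35 groups of library values examined at the 4 loci, 5 had 1 value well separated from the others. Chance marks about 1 group in 20, but that rate does not hold for the 3 groups whose other values were all 0, where any value above 0 stands apart. MERGE.14815.2 was 14.8 in neferine 1, where the nearest other treated library had 37.5. MERGE.14292.23 was 15.2 in SHR 2 and listed at 0 in the other SHR libraries, and MERGE.14292.57 was 3.59 in SHR 2 and again at 0 in the others. MERGE.14292.57 was listed at 0 in WKY 3, where the nearest other WKY library had 99.3. MERGE.14292.84 was 0.284 in neferine 5 and at 0 in the other treated libraries.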

How the results depend on the processing

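No row of the 4 loci was called between neferine-treated and untreated SHR by limma under any alternative run (0 in each). Over all features, limma with the compared groups alone called 3 transcripts and 1 ratio; without WKY 1, WKY 3, SHR 3 and SHR 4 it called 2 locus sums and 2 ratios, and with all rows of each file 3 locus sums. Leaving out single libraries gave 1 to 7 transcripts (7 without neferine 3, 3 without SHR 2, 2 without SHR 1, SHR 4 or SHR 6), 0 to 2 locus sums (2 without SHR 4, 1 without neferine 4) and 0 to 3 ratios (3 without SHR 6, 2 without SHR 4 or neferine 1, 1 without neferine 3). The replicate block (animal number) called 1 transcript, 0 locus sums and 0 ratios. Same-numbered SHR and neferine libraries did not vary together over all tested transcripts (correlations of -0.023 to 0.029). This shows no strong pattern shared by number, but cannot exclude that the rats were paired. Small neferine differences changed sign: the MERGE.14815 sum was -0.0089 after median-of-ratios scaling, -0.049 without those 4 libraries and -0.040 to 0.13 without single libraries. The MERGE.6140 sum ran from -0.25 to 0.13 without single libraries, the MERGE.16966 sum was -0.077 without the 4 libraries and 0.033 (without SHR 3) to 0.26 (without SHR 6) without single libraries, and MERGE.14815.2 was -0.093 without them and -0.044 to 0.63 without single libraries. The MERGE.14292 sum kept its sign, at 0.074 without the 4 libraries and 0.097 (without SHR 3) to 0.42 without single libraries. Exact two-sided permutation tests of the 4 sums (462 splits) gave p of 0.152 to 0.788. For SHR against WKY, a pseudocount of 0.1 gave log2 differences of 6.8 for the MERGE.14815 sum, 6.395 for MERGE.14815.1 and 7.32 for MERGE.16966, which was 6.17 without the 4 libraries. The MERGE.14292 sum was -0.86 on shared rows. Its rows lower in every SHR library were 3 on shared rows (1.66% over all rows), 12 to 16 without single libraries (2.87% to 3.17%) and 23 without the 4 libraries (8.31%), since fewer libraries overlap less often; rows higher numbered 9 to 11 without single libraries (2.64% to 3.46%). The MERGE.14292 and MERGE.14815 sums ran from -1.9 to -1.57 and from 6.09 to 6.27 without single libraries.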

Other observations

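The neferine files hold 2 rows of MERGE.14292 that the WKY and SHR files do not list. MERGE.14292.3 was 7.49 in neferine 6, 0.216 in neferine 5 and 0 in the other 4. MERGE.14292.9 was 4.43, 3.05 and 1.62 in neferine 2, 4 and 5 and 0 in the others. They have no value in the other groups to compare with.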
